A study of Mus musculus with 60 samples.

Results

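The 9 passage 1 libraries of mouse embryonic fibroblasts were ordered here by how much Nrg1 RNA each of them held, and split into 3 tiers of 3 embryos. They are 9 of the 60 samples of the series and 9 of its 18 fibroblast samples. Tiers were set by the Nrg1 level in CPM (a gene's count as a share of its library's total count, scaled up to the customary unit): below 5 CPM for the low tier, between 5 and 80 CPM for the middle tier and above 80 CPM for the high tier. Because measured values chose the tiers, Nrg1 levels are given as a description and were not tested. These tiers are not the study's genotype groups, from which they differ for embryos 1 and 3.

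NRG1 (neuregulin 1) is a secreted growth factor of the EGF family that binds the receptor tyrosine kinases ERBB3 and ERBB4, which then pair with ERBB2 and signal through the PI3K-AKT and RAS-ERK pathways. Fusions that join CD74, an invariant chain of antigen presentation, to the EGF-like part of NRG1 are known as drivers of human lung adenocarcinoma. ERBB2 has no ligand of its own and ERBB3 has little kinase activity, so a cell without ERBB3 and ERBB4 has no direct receptor for NRG1.

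The embryos came from matings between mice of the Rosa26 CD74-NRG1/Flp line. In that line a CD74-NRG1 transgene sits in the Rosa26 locus behind a stop cassette flanked by FRT sites (allele FSF.CD74-NRG1), and a Flp recombinase allele in the same locus removes the cassette. Embryos labelled homozygous are FSF.CD74-NRG1/FSF.CD74-NRG1, those labelled heterozygous are FSF.CD74-NRG1/Flp, and those labelled negative are Flp/Flp. Copies of the Flp allele therefore go down as copies of the transgene go up, so that effects of Flp, of the transgene and of the altered Rosa26 locus cannot be told apart in these groups. No source used here gives the age of the embryos, their strain or their litters, and each embryo gave 1 library per passage. The title of the passage 1 sample of embryo 8 names another passage than its description and group label, which were followed here. RNA was read with QuantSeq, so a gene's count comes from the 3′ end of its transcripts.

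Throughout, values of the high tier are given in the order of embryos 1, 7 and 10, those of the middle tier in the order 2, 4 and 6, and those of the low tier in the order 3, 5 and 8. Nrg1 stood at 132, 141 and 84.9 CPM in the high tier, at 32.3, 43.8 and 57.2 CPM in the middle tier and at 0.644, 1.57 and 0.485 CPM in the low tier. The low values rest on 2, 6 and 2 counts, and the limit that a count of 0 allows (3 counts) is 0.721 to 0.965 CPM across the 9 libraries. Next to the limits of the tiers, the highest low library was embryo 5, the lowest middle library was embryo 2, the highest middle library was embryo 6 and the lowest high library was embryo 10. The Wilson 95% interval of embryo 10 ran from 76.3 to 94.6 CPM, so it includes values below the limit of 80 CPM, while that of embryo 6 ran from 50.3 to 65.1 CPM. Such intervals cover counting error only. The tier mean was 119 CPM in the high tier and 44.4 CPM in the middle tier, a ratio of 2.69.

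The middle tier holds the 3 embryos labelled heterozygous. The high tier holds embryos 7 and 10, labelled homozygous, and embryo 1, labelled negative. The low tier holds embryos 5 and 8, labelled negative, and embryo 3, labelled homozygous. At passage 3 embryo 1 had 147 CPM of Nrg1 and embryo 3 had 1.28 CPM, so both went against their labels at both passages. By the genotypes given for the labels, embryos 7 and 10 carry no Flp allele to remove the stop cassette. Their Nrg1 stood at 141 and 84.9 CPM all the same, above the 32.3 to 57.2 CPM of the embryos labelled heterozygous. The state of the cassette in each embryo was not tested. Reads of the transgene and of the endogenous Nrg1 gene cannot be told apart in a table with 1 value per gene. Cd74 was at most 1.71 CPM in any of the 9 libraries. As counts come from the 3′ end of transcripts, this level does not bear on whether the fusion was expressed.

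Total counts ran from 3107561 to 4158834 per passage 1 library, and mitochondrial genes took 0.421 to 0.792% of them. The libraries of embryos 2, 3 and 10, from 3 different tiers, stood apart from the other 6 on the first principal component, which held 56.6% of the variance of 9742 genes. These 3 had little RNA of macrophages and of interferon-stimulated genes, as described below. Y-linked transcripts were present at 103 to 129 CPM in embryos 1, 7, 2 and 3 and reached at most 1.05 CPM in the others, so 2 of 3 high-tier embryos and 1 of 3 in each other tier were male. Of the fibroblast markers, Pdgfrb was between 106 and 166 CPM in the 9 libraries, and Vim between 1540 and 2120 CPM. Pdgfra was at 17.7, 15.1 and 4.36 CPM in embryos 2, 3 and 10 and between 29.6 and 45 CPM in the other 6, so these 3 were also low in that marker, which was named after its values were seen.

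**Figure D1:**
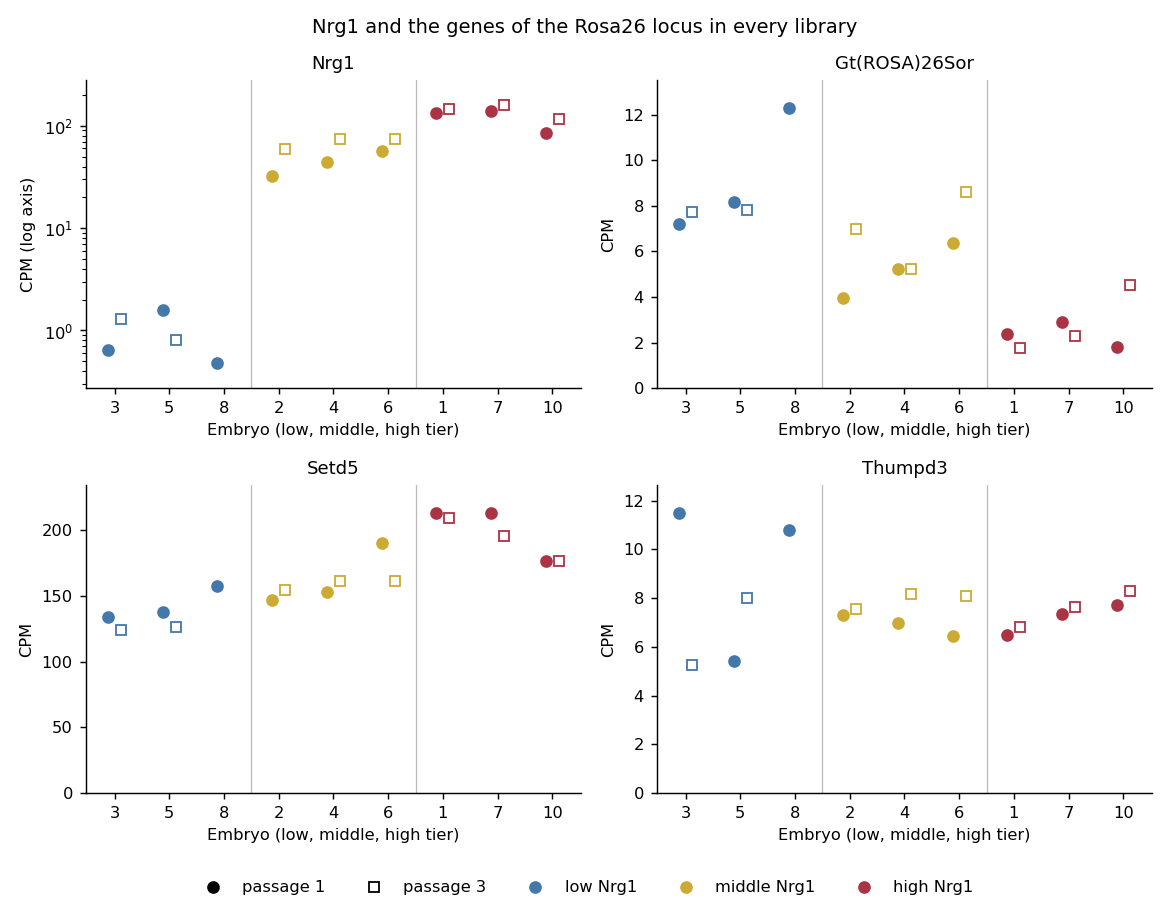
Levels of Nrg1 (log axis) and of the 3 genes of the Rosa26 locus (linear axes from 0) in CPM, for each embryo grouped by tier. Filled circles are passage 1 libraries and open squares passage 3 libraries of the same embryos; Gt(ROSA)26Sor steps down from the low to the high tier at passage 1, with 7.21 to 12.3 CPM in the low tier and 1.8 to 2.93 CPM in the high tier.

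Among genes other than Nrg1, the lowest p-value in the comparison of the high with the low tier belonged to Gt(ROSA)26Sor, the non-coding transcript of the locus into which both engineered alleles were placed. It stood at 2.4, 2.93 and 1.8 CPM in the high tier, at 3.94, 5.24 and 6.36 CPM in the middle tier and at 7.21, 8.17 and 12.3 CPM in the low tier. The 3 tiers did not overlap and followed the reverse order of Nrg1. These are low levels, beside 0.721 to 0.965 CPM for 3 counts, and the nearest values of neighbouring tiers lay close. They were 2.93 and 3.94 CPM for high and middle, and 6.36 and 7.21 CPM for middle and low. Counting error was not worked out for this gene, so whether these gaps exceed it is not known. The high tier was lower by a log2 fold change of -1.96 (standard error 0.32, 95% interval -2.69 to -1.23), with an unadjusted p of 0.00018 in edgeR's quasi-likelihood test. Adjusted over all genes tested, the p was 1, so the difference did not pass the threshold of 0.05. The middle tier lay between, at a log2 fold change of -0.81 against the low tier (unadjusted p = 0.024).

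Embryo 1, labelled negative, had 2.4 CPM of Gt(ROSA)26Sor beside 8.17 and 12.3 CPM in the other embryos with that label. Embryo 3, labelled homozygous, had 7.21 CPM beside 2.93 and 1.8 CPM in the others labelled so. For this gene too, both embryos sat with their Nrg1 tier and not with their label, and the log2 fold change between the labelled homozygous and negative groups was -0.97. An exact permutation test of the order of the tiers, two-sided over 1680 arrangements of the 9 libraries, gives p = 0.0012 for any gene in such strict order, the smallest that it can give, so that this value restates the order. At passage 3, where the tiers were carried over and the low tier has 2 embryos, the values were 1.76, 2.29 and 4.55 CPM in the high tier, 6.98, 5.23 and 8.59 CPM in the middle tier and 7.74 and 7.8 CPM in the low tier. The log2 fold change of high against low was -1.5 there (unadjusted p = 0.0039, adjusted p = 0.8 in edgeR), and the exact permutation p of the order was 0.029.

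The neighbours of Gt(ROSA)26Sor in RefSeq (GRCm38.p6) are Thumpd3, which overlaps it, and Setd5, a gene of a SET domain protein, on the other side. Setd5 stood at 213, 213 and 176 CPM in the high tier, 147, 153 and 190 CPM in the middle tier and 134, 138 and 157 CPM in the low tier. High and low did not overlap, while embryo 6 of the middle tier lay above embryo 10 of the high tier. The log2 fold change of high against low was 0.47 (SE 0.12, unadjusted p = 0.003, adjusted p = 1 in edgeR), and the exact permutation p of the tier order was 0.021. At passage 3 it was 209, 195 and 176 CPM in the high tier, 154, 161 and 161 CPM in the middle tier and 124 and 126 CPM in the low tier, with no overlap between any of them. The log2 fold change was 0.57 there (unadjusted p = 0.00012, adjusted p = 0.34 in edgeR), and the exact permutation p of the order was 0.0036, again the smallest possible (560 arrangements) and a restatement of the strict order. In DESeq2 the passage 3 difference passed the threshold, with an adjusted p of 0.0022. DESeq2 adjusted over only 3485 genes there, and edgeR over 11787. Between the labelled groups the passage 1 log2 fold change was 0.06.

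Thumpd3, a gene of a THUMP domain protein, showed no such order. Its levels were 6.5, 7.35 and 7.7 CPM in the high tier, 7.31, 7 and 6.45 CPM in the middle tier and 11.5, 5.44 and 10.8 CPM in the low tier, and high and low overlapped. Its log2 fold change was -0.38 (95% interval -1.03 to 0.27), with an exact permutation p of 1 at passage 1 and 0.61 at passage 3. These exact values are 6 in all, for 3 genes at 2 passages, and are not adjusted. No source used here says whether reads were counted by strand, so reads of Thumpd3 and Gt(ROSA)26Sor may be mixed where they overlap.

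The comparison of the high with the low tier asks how fibroblasts with the most Nrg1 RNA differ from those with almost none. Of 11579 genes tested, 0 passed the adjusted threshold in edgeR (0%). In DESeq2 0 passed of the 21545 genes that it gave an adjusted p. At an unadjusted p under 0.05 there were 351 genes (3.03%), 193 of them higher (1.67%) and 158 lower (1.36%) in the high tier. The 3 libraries of the high tier lay above all 3 of the low tier for 675 genes (5.83%) and below them for 392 genes (3.39%). With 3 libraries a side, unrelated values also come to lie apart by chance. A lack of overlap alone therefore does not mark a difference, here or below. The 3.03% at an unadjusted p under 0.05 is no more than that threshold gives among unrelated values. The precision was such that the 95% interval of the log2 fold change reached less than 1 to either side for 9666 genes (83.5%), with a median reach of 0.49. The genes named next are those with the smallest p among genes whose tiers did not overlap, all short of the threshold.

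Among genes that were higher in the high tier, Gab1 encodes a docking protein that carries PI3K and SHP2 to activated receptor tyrosine kinases. It stood at 11.1, 11.5 and 10.8 CPM in the high tier, 7.03, 6.36 and 7.78 CPM in the middle tier and 5.79, 3.93 and 7.03 CPM in the low tier. The high tier lay above all other libraries, and the middle and low tiers overlapped, with embryo 4 below embryo 8. This was a log2 fold change of 0.97 (SE 0.24, unadjusted p = 0.0029 in edgeR). At passage 3 the difference was -0.29, and the difference between the passages had an unadjusted p of 0.0024 and an adjusted p of 1 in edgeR.

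C1qtnf6, a secreted protein of the C1q and TNF-related family, was at 20.7, 16.9 and 15.9 CPM in the high tier, 14.1, 10.7 and 13.3 CPM in the middle tier and 9.65, 9.95 and 10.9 CPM in the low tier. High and low stood clear of each other, and the log2 fold change was 0.78 (SE 0.18). Adamts5, a protease that cuts aggrecan and versican, was at 85.8, 83.2 and 75.7 CPM in the high tier, against 60.7, 60.3 and 53.7 CPM in the middle and 60.8, 63.6 and 58 CPM in the low tier. Here the middle and low tiers overlapped and the high tier alone lay above both, with a log2 fold change of 0.40 (SE 0.10). The transcription factor gene Bach2 had a log2 fold change of 0.84, with 14.4 to 19.5 CPM in the high tier and 7.4 to 11.2 CPM in the low tier.

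Smaller differences were seen for Mllt4 (afadin, which links nectins to actin), Fscn1 (fascin, which bundles actin filaments) and Hsp90b1 (GRP94, a chaperone of the endoplasmic reticulum). Mllt4 was at 40.4, 42.6 and 41.3 CPM in the high tier, 35.4, 36.4 and 33.9 CPM in the middle tier and 33.5, 28.8 and 29.6 CPM in the low tier, so its 3 tiers followed the order of Nrg1 without overlap. The log2 fold changes of high against low were 0.42 for Mllt4, 0.30 for Fscn1 and 0.27 for Hsp90b1. At passage 3 they were 0.41, 0.25 and 0.25 in the same order.

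Among genes that were lower in the high tier, Cth encodes cystathionine gamma-lyase, which makes cysteine from cystathionine. It stood at 12.3, 11.3 and 7.19 CPM in the high tier, 15.2, 17.1 and 19.3 CPM in the middle tier and 20.6, 25.4 and 16.3 CPM in the low tier. High and low did not overlap, while the middle tier reached into the low. This was a log2 fold change of -1.04 (SE 0.24, unadjusted p = 0.0016 in edgeR). At passage 3 the values were 11.7, 13.2 and 14.2 CPM in the high tier, 18.7, 18.5 and 14 CPM in the middle tier and 28.3 and 29.8 CPM in the low tier, a log2 fold change of -1.22 (unadjusted p = 4.7e-05, adjusted p = 0.19 in edgeR).

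Il1rl1 encodes ST2, the receptor of interleukin 33, and is a serum response gene of fibroblasts. It was at 284, 279 and 124 CPM in the high tier, 281, 314 and 340 CPM in the middle tier and 432, 375 and 510 CPM in the low tier. The low tier lay above both others, and embryo 10 was the lowest of all 9 libraries. High against low gave a log2 fold change of -0.97 (SE 0.26). At passage 3 it was 0.29, with 744 CPM in embryo 10 and 241 and 297 CPM in embryos 1 and 7 beside 347 and 327 CPM in the low tier, and without embryo 10 it was -0.38.

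Lsm7, a subunit of the ring that binds U6 RNA and the 3′ end of mRNAs under decay, was at 14.2, 15.3 and 16.1 CPM in the high tier, 17.6, 57 and 15.2 CPM in the middle tier and 64.9, 71.2 and 45.7 CPM in the low tier. The middle tier was split, with embryo 4 at the level of the low tier and the other 2 near the high tier. High against low gave a log2 fold change of -2.01 (SE 0.45), and at passage 3 it was 0.52. The difference between the passages had an unadjusted p of 0.004 and an adjusted p of 1 in edgeR.

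The other 4 genes with the lowest p on this side were Mtmr9, Sgsh, Nf2 and Clic1. Mtmr9, a catalytically inactive myotubularin, had a log2 fold change of -1.04, and Sgsh, a lysosomal sulfatase of heparan sulfate breakdown, of -0.63. Nf2 (merlin, an upstream part of the Hippo pathway) was at 68, 68 and 65.2 CPM in the high tier and 88.2, 81.7 and 80.5 CPM in the low tier, with 81.3, 88.6 and 83.3 CPM in the middle tier. Middle and low overlapped and the high tier lay below both, at a log2 fold change of -0.34. For Clic1, an intracellular chloride channel protein, the log2 fold change was -0.28.

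**Figure D2:**
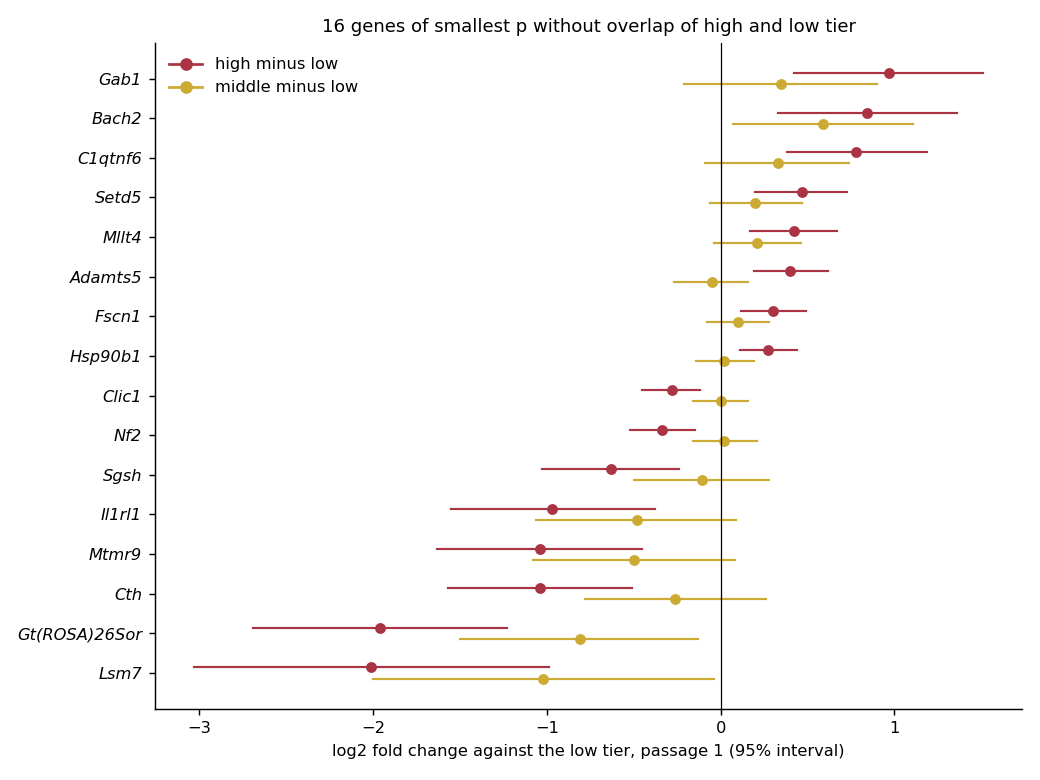
Log2 fold changes against the low tier at passage 1 for the 8 genes higher and the 8 genes lower in the high tier that the naming rule picked, with 95% intervals, for the high tier and for the middle tier. The high-tier intervals of these genes lie away from 0 because the rule picked them; for Nf2, Clic1, Adamts5 and Hsp90b1 the middle tier is within 0.05 of 0.

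Receptors for the ligand were sparse. Erbb4 was at 0 CPM in 8 of the 9 libraries and at 0.257 CPM in embryo 10, and Erbb3 was between 0.243 and 5.13 CPM, with the highest value again in embryo 10. Neither had enough counts to be tested. Erbb2, the shared partner receptor, was at 20.7, 18.3 and 29 CPM in the high tier, 27, 19.9 and 18.6 CPM in the middle tier and 19.3, 22.2 and 20.6 CPM in the low tier. The tiers overlapped, and the log2 fold change of high against low was 0.11 (95% interval -0.39 to 0.62), or -0.13 without embryo 10.

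Egfr, the receptor of EGF and its relatives, was at 43.8, 40.4 and 58.8 CPM in the high tier, 26.4, 39.2 and 36.9 CPM in the middle tier and 36.7, 34 and 24.3 CPM in the low tier. The high tier lay above the low without overlap and above the middle as well. The log2 fold change was 0.57 (95% interval 0.06 to 1.08, unadjusted p = 0.031, adjusted p = 1 in edgeR), and at passage 3 it was 0.18 (unadjusted p = 0.13). Of the other 10 ligands of the family listed, Ereg and Hbegf were tested and none passed. Ereg (epiregulin) had a log2 fold change of 0.42 and Hbegf (heparin-binding EGF) of 0.30. Hbegf was at 471 CPM in embryo 10 and between 185 and 314 CPM in the other 8 libraries, and its log2 fold change without embryo 10 was -0.26.

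Of 16 genes for adaptors and inhibitors that work below ErbB receptors, 9 were higher and 7 lower in the high tier, with a median log2 fold change of 0.05 beside 0 over all genes tested. None passed, and Gab1 and Pik3r1 were higher with an unadjusted p under 0.05, as 1.67% of all genes tested were. Pik3r1, a regulatory subunit of PI3K, was at 68.5, 72.4 and 70.8 CPM in the high tier and 50.8, 57.1 and 65.5 CPM in the low tier, with 58.8, 64.1 and 60.2 CPM in the middle tier. The high tier lay above both others, at a log2 fold change of 0.27, and at passage 3 the value was 0.26. Of 14 tested FOXO targets, genes that AKT signalling holds down, 9 were higher and 5 lower (median 0.11, range -0.4 to 0.55), none past the threshold. Among the higher ones Pik3ip1, an inhibitor of PI3K, stood at 0.55 and the cell cycle inhibitor gene Cdkn1b at 0.22. Among the lower ones Gadd45a was at 7.45, 5.87 and 7.44 CPM in the high tier and 4.83, 11.5 and 10.4 CPM in the low tier, which overlapped.

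Genes that respond to ERK signalling or feed back on it were tested for 22 of 23 members. In the high tier 14 were higher and 8 lower, with a median log2 fold change of 0.09, and without embryo 10 there were 8 higher and 14 lower (median -0.05). None passed, and Il1rl1 was the only one with an unadjusted p under 0.05, which 3.03% of all genes tested had in either direction. The cyclin gene Ccnd1 stood at -0.26, the early response genes Egr2 at 0.36 and Ier3 at 0.22. The feedback inhibitors Dusp6 and Spry2, which were named after their values were seen, had log2 fold changes of 0.20 (95% interval -0.21 to 0.61) and 0.11 (95% interval -0.09 to 0.31). Both intervals exclude a log2 difference of 1 in either direction. Without embryo 10, which had the highest level of Ier3 and of Dusp6, Ier3 stood at -0.01 and Dusp6 at -0.06.

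**Figure D3:**
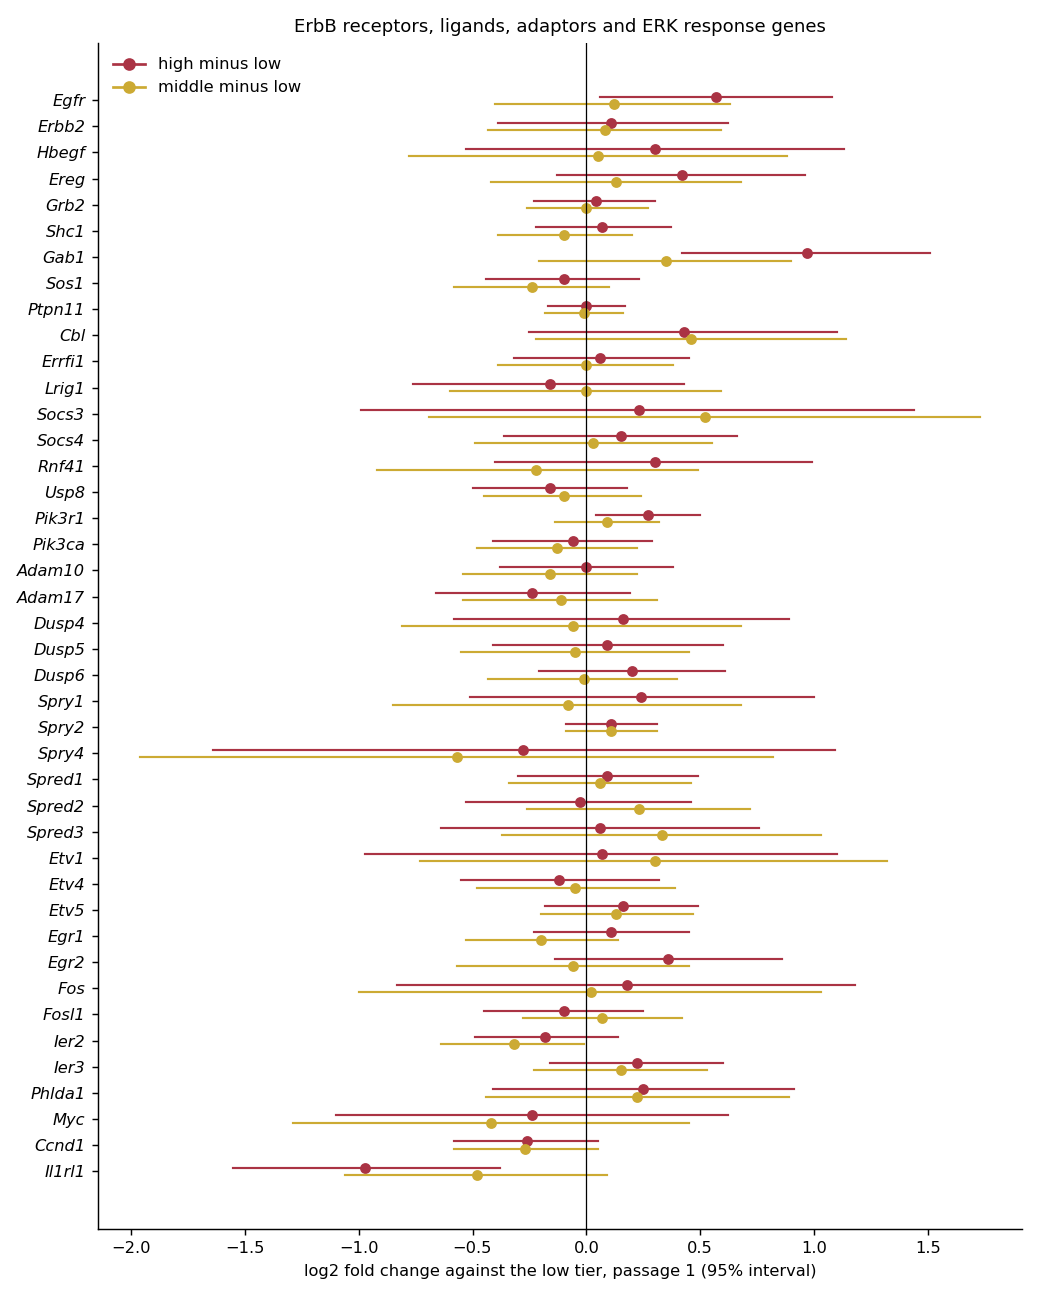
Log2 fold changes against the low tier at passage 1, with 95% intervals, of the tested genes for ErbB receptors, their ligands, adaptors and inhibitors, and ERK feedback and response, for the high and the middle tier. For the high tier Gab1 at 0.97 and Egfr at 0.57 stand to the right and Il1rl1 at -0.97 to the left.

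ATF4 is the transcription factor of the response to amino acid shortage, and its targets make and import amino acids. Of 16 genes on the list, 15 were lower in the high tier and 1 higher, with a median log2 fold change of -0.31 beside 0 over all genes tested. None passed the threshold. Cth, Slc7a5 and Atf4 itself were lower with an unadjusted p under 0.05, as 1.36% of all genes tested were. Without embryo 10 there were again 15 lower, with a median of -0.13, and without embryos 2, 3 and 10 all 16 were lower (median -0.31). The latter fit sets male embryos 1 and 7 against female embryos 5 and 8, so tier and sex cannot be told apart there. In the middle tier 13 were lower and 3 higher, with a median of -0.02.

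Slc7a5, the light chain of the large neutral amino acid transporter, was at 293, 264 and 182 CPM in the high tier, 438, 354 and 363 CPM in the middle tier and 272, 675 and 427 CPM in the low tier. High and low overlapped through embryo 3, and the log2 fold change was -0.92 (unadjusted p = 0.012). Atf4 was at 626, 588 and 506 CPM in the high tier, 722, 708 and 663 CPM in the middle tier and 595, 756 and 728 CPM in the low tier. Here too embryo 3 lay among the high tier, and the log2 fold change was -0.29. Trib3, a pseudokinase that damps ATF4, stood at -0.78, with 18.5 to 47.8 CPM in the high tier and 35.7 to 74.1 CPM in the low tier. At passage 3 all 16 genes were lower in the high tier (median -0.31), 7 of them with an unadjusted p under 0.05, which 5.88% of all genes tested had in that comparison in either direction. There the log2 fold changes were -0.85 for Slc7a5 and -0.78 for Trib3. In DESeq2, which adjusted over only 3485 genes there, Trib3 had an adjusted p of 0.049. The labelled homozygous group was lower than the negative group for all 16 genes as well (median -0.48), so for this list the labels and the tiers gave the same direction.

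Of 17 genes on the cholesterol list, 16 were lower in the high tier and 1 higher (median -0.34), and 6 had all 3 high-tier libraries below the low tier (3.39% of all genes tested). None passed, and 3 were lower with an unadjusted p under 0.05 (1.36% of all genes), Sqle and Lss among them. Sqle, the squalene epoxidase, was at 43.5, 43 and 41.1 CPM in the high tier, 56.5, 46.3 and 48.2 CPM in the middle tier and 57.6, 51.8 and 51.9 CPM in the low tier. The high tier lay below both others, and the log2 fold change was -0.36 (SE 0.12).

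Lss, the lanosterol synthase, was at 6.73, 7.58 and 4.88 CPM in the high tier, 10.1, 7.38 and 9.54 CPM in the middle tier and 9.33, 9.42 and 8.97 CPM in the low tier. High and low did not overlap, and the log2 fold change was -0.55. For Msmo1, a sterol oxidase, it was -0.40. Without embryos 2, 3 and 10, the counts were 13 lower and 4 higher (median -0.23), between the labelled groups 9 lower and 8 higher (median -0.04), and in the middle tier 11 lower and 6 higher (median -0.01). The fit without embryos 2, 3 and 10 again set male embryos against female ones. At passage 3 there were 14 lower and 3 higher in the high tier, with a median of -0.14.

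Among other metabolic genes, 9 of 13 tested for glycolysis and hypoxia were lower in the high tier (median -0.08). Of 9 NRF2 targets of the oxidative stress response 7 were lower (median -0.02), and Gstm1, a glutathione transferase, was higher at 0.78. None passed in either list.

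**Figure D4:**
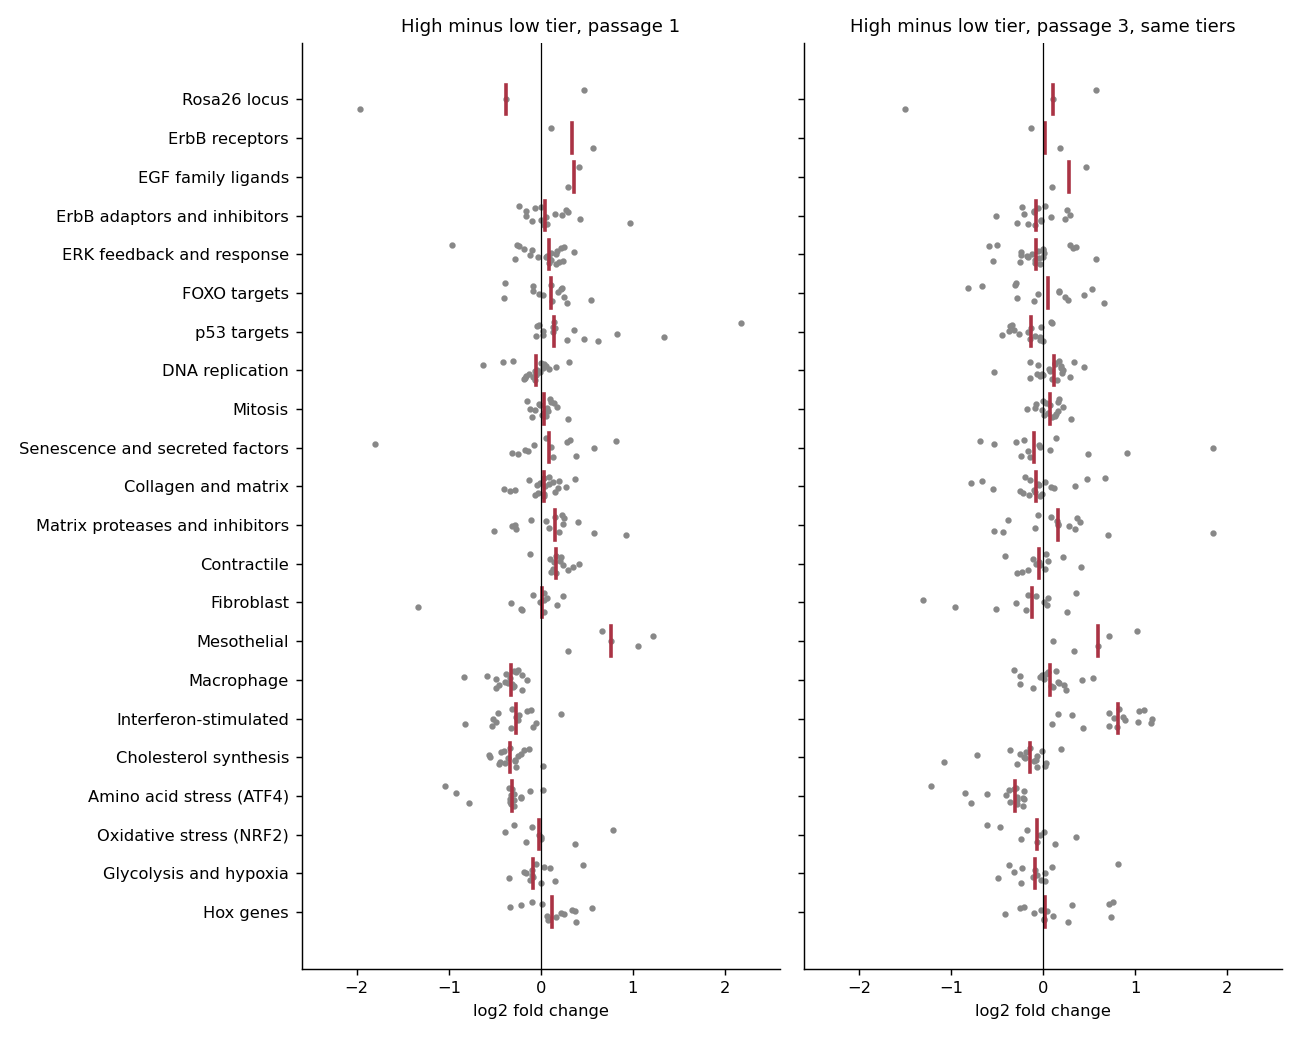
Log2 fold changes of high against low for the members of 22 gene lists, 1 point per gene tested, at passage 1 on the left and passage 3 on the right, with a red bar at each median. The ATF4 list has its median at -0.31 on both sides, while the interferon list has -0.26 on the left and 0.81 on the right, and the p53 list 0.14 and -0.14.

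Proliferation genes gave small values that turned on embryo 10. Of 17 mitosis genes 11 were higher and 6 lower in the high tier (median 0.04), none with an unadjusted p under 0.05. Without embryo 10 all 17 were higher (median 0.20), and 4 had an unadjusted p under 0.05, which 2.88% of all genes had in that fit. That fit leaves embryos 1 and 7, both male and rich in macrophage RNA, in the high tier. The low tier keeps embryo 3, which was poor in it, and female embryos 5 and 8. Tier, sex and macrophage RNA are therefore mixed in every passage 1 value of high against low given without embryo 10. Mki67, the marker of cycling cells, was at 93.8, 97.6 and 41.8 CPM in the high tier, 67.2, 68.7 and 71.5 CPM in the middle tier and 63.1, 66.5 and 55.8 CPM in the low tier. Embryos 1 and 7 were the highest and embryo 10 the lowest of all 9 libraries, so the tiers overlapped, and the log2 fold change was 0.30. The mitotic kinesin gene Kif20a stood at 0.14.

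For DNA replication 15 of 22 genes were lower (median -0.05, range -0.63 to 0.31), or 6 of 22 without embryo 10 (median 0.10). Of the 4 members with the smallest p, Ccne1 alone was higher in the high tier, at the top of that range. Ccne1 (cyclin E1, which drives entry into S phase) was at 57, 60.9 and 59.5 CPM in the high tier, 48.4, 45.1 and 45.4 CPM in the middle tier and 45.7, 45.3 and 49.7 CPM in the low tier. The high tier lay above all other libraries, and the log2 fold change was 0.31 (SE 0.10, unadjusted p = 0.0095 in edgeR), or -0.14 at passage 3.

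Of 16 p53 targets 13 were higher in the high tier (median 0.14). Without embryo 10 there were 4 higher and 12 lower (median -0.16), and at passage 3 there were 3 higher and 13 lower. Pmaip1, the cell death gene NOXA, was at 84.4 CPM in embryo 10 and between 5.52 and 27 CPM in the other 8 libraries, and its log2 fold change of 1.34 was -0.61 without that embryo. Cdkn1a (p21) was at 519 CPM in embryo 10 and between 172 and 250 CPM elsewhere, with a log2 fold change of 0.62. Perp, a desmosome protein, stood at 2.17 on levels of 6.49, 2.2 and 22.6 CPM in the high tier and 2.25, 3.66 and 0.97 CPM in the low tier, which overlapped.

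Of 14 genes for senescence and secreted factors 8 were higher and 6 lower (median 0.09). Gdf15, a stress cytokine, was at 51.6 CPM in embryo 10 and between 10.2 and 23.3 CPM in the others. Its log2 fold change was 0.82, and -0.04 without embryo 10. Igfbp5, a binding protein of insulin-like growth factors, was at 164 CPM in embryo 2 and 154 CPM in embryo 3 and between 9.03 and 24.1 CPM elsewhere, which gave a log2 fold change of -1.80 with the tiers, 0.20 without embryo 3 and 2.03 between the labelled groups.

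Of 20 collagen and matrix genes 12 were higher and 8 lower in the high tier (median 0.04, range -0.40 to 0.37), none with an unadjusted p under 0.05. Their mean on the log2(CPM + 1) scale was 8.17, 8.15 and 7.99 in embryos 2, 3 and 10 and between 8.52 and 8.72 in the other 6, so the level followed the libraries that stood apart. Dcn (decorin, named after its values were seen) was at 32.9, 22.5 and 24.6 CPM in those 3 embryos and between 89.7 and 144 CPM in the other 6, and Bgn (biglycan, a small proteoglycan of collagen matrix) stood at -0.13. Of 15 matrix proteases and inhibitors 10 were higher and 5 lower (median 0.15), among them the gelatinase gene Mmp2 at 0.93 and the inhibitor gene Timp1 at 0.25. Mmp2 was at 78.3 CPM in embryo 10 and between 19.6 and 35.2 CPM elsewhere.

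Of 13 contractile genes 12 were higher in the high tier (median 0.17), and without embryo 10 there were 10 (median 0.06). Tpm2 (beta-tropomyosin) was at 464, 455 and 452 CPM in the high tier, 413, 407 and 428 CPM in the middle tier and 394, 375 and 396 CPM in the low tier, in the order of Nrg1 without overlap. Its log2 fold change was 0.21 (SE 0.07, unadjusted p = 0.012 in edgeR), and it was 0.05 at passage 3. Myl9, a myosin regulatory light chain, stood at 0.24.

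The fibroblast list was split evenly, with 6 higher and 6 lower of 12 tested (median 0.01). S100a4, a calcium-binding protein that macrophages also express, was at 1400, 1310 and 325 CPM in the high tier, 2530, 1410 and 2100 CPM in the middle tier and 1350, 3010 and 3100 CPM in the low tier. Embryo 3 lay between embryos 1 and 7, so high and low overlapped, and the log2 fold change was -1.33 (unadjusted p = 0.026). Pdgfrb, a receptor of platelet-derived growth factor, stood at -0.20. Of 14 Hox genes, which record the position along the body axis, 11 were higher (median 0.13). Hoxc10 was the only one with an unadjusted p under 0.05, which 3.03% of all genes tested had in either direction.

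Markers of macrophages and muscle differed widely between embryos of the same tier. In a bulk library fewer cells of a type and less RNA per cell cannot be told apart. The 18 macrophage markers summed to 1730, 2720 and 103 CPM in the high tier, 169, 2770 and 1970 CPM in the middle tier and 92.4, 2590 and 3070 CPM in the low tier, with 1 low library in each tier. All 18 were lower in the high tier (median log2 fold change -0.32), while without embryo 10 there were 15 higher and 3 lower (median 0.18). C1qa, a complement gene of macrophages, ran from 10.9 to 555 CPM within the low tier and from 11 to 473 CPM within the high tier, at a log2 fold change of -0.59 (95% interval -3.69 to 2.51).

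Of 17 interferon-stimulated genes 16 were tested, and their sum followed the same embryos. The sums were 1100, 1420 and 63.4 CPM in the high tier, 125, 1190 and 1500 CPM in the middle tier and 92, 1190 and 1740 CPM in the low tier. Of those tested, 15 were lower in the high tier (median -0.26), or 1 of 16 without embryo 10 (median 0.27). Oas1a, a sensor of double-stranded RNA, stood at -0.53 and was listed at 0 in embryo 10. At passage 3 all 16 were higher in the high tier (median 0.81). Of them 1 had an unadjusted p under 0.05, which 5.88% of all genes tested had there in either direction.

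The sum of 17 skeletal myogenic genes was 602 CPM in embryo 10 and between 11.4 and 86.1 CPM in the other 8 libraries. Myog, the myogenin gene of differentiating muscle cells, was at 148 CPM in embryo 10, at 7.08 CPM in embryo 3 and at 6.19 CPM in embryo 2, and at most 0.753 CPM elsewhere. Mylpf, a light chain of fast muscle myosin, was at 66.7 CPM in embryo 10. The 6 genes tested had a median log2 fold change of 2.57, and without embryo 10 all 6 were lower with a median of -1.02. What part this muscle RNA has in the other differences that turned on embryo 10 was not tested.

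Mesothelial markers, of the lining of body cavities, were higher in the high tier for all 5 genes tested (median 0.76), and also in the middle tier (median 0.50). Their sums were 86.1, 44 and 55.2 CPM in the high tier, 39.4, 74.1 and 44.4 CPM in the middle tier and 15.8, 65.2 and 23.8 CPM in the low tier, which overlapped through embryo 5. Wt1, a transcription factor of mesothelium, was at 20.9, 17.4 and 16.9 CPM in the high tier, 12.1, 18.8 and 14.3 CPM in the middle tier and 7.4, 16.2 and 8.25 CPM in the low tier. High and low did not overlap, and the log2 fold change was 0.76 (unadjusted p = 0.03). Upk1b, a uroplakin, stood at 1.22. Between the labelled groups all 5 genes were lower in the homozygous embryos (median -0.61).

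The remaining lists held few genes. Of the Schwann cell and neural crest markers 4 of 7 tested were higher (median 0.36), with Pmp22, a myelin protein gene that fibroblasts also express, at 0.53, and without embryo 10 there were 3 of 7 (median -0.01). Of the neuronal markers 3 of 4 were higher (median 0.09), of the endothelial ones 2 of 2 (median 0.30), of the epithelial ones 1 of 4 (median -0.14), of the adipocyte ones 0 of 3 (median -0.27) and of those of cartilage and bone 3 of 5 (median 0.13). All 8 erythroid genes were listed at 0 in the 9 libraries. None of these genes passed the threshold. Of 5 sex-linked genes 4 were higher in the high tier (median 1.11), which has 2 male embryos of 3 beside 1 of 3 in the low tier.

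**Figure D5:**
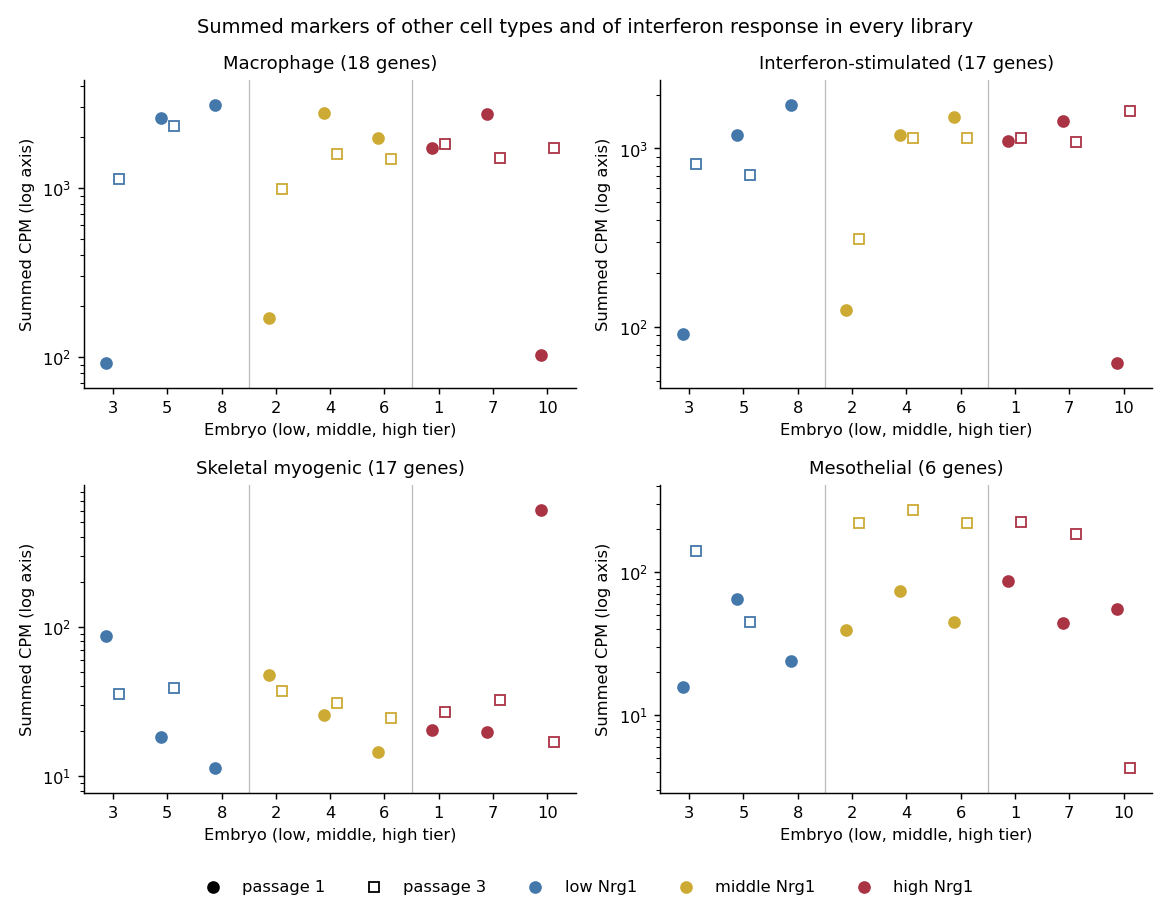
Summed CPM (log axis) of macrophage, interferon-stimulated, skeletal myogenic and mesothelial genes in each embryo grouped by tier, with filled circles for passage 1 and open squares for passage 3. At passage 1 embryos 2, 3 and 10 have macrophage sums of 92.4 to 169 CPM and the others 1730 to 3070 CPM, and embryo 10 alone has a myogenic sum of 602 CPM.

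The middle tier has the embryos labelled heterozygous and shares its low-tier controls with the comparison above. Of 11579 genes 0 passed in edgeR (0%), and the smallest adjusted p was 0.76. In DESeq2 there were 2 of 21545, both gene models without a proper name. At an unadjusted p under 0.05 there were 222 genes (1.92%), 111 higher (0.959%) and 111 lower (0.959%). The 3 middle libraries lay above the low tier for 437 genes (3.77%) and below it for 404 genes (3.49%).

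Serinc5, a membrane protein that restricts retroviruses, was at 7.87, 8.91 and 7.28 CPM in the middle tier and 2.9, 3.4 and 4.61 CPM in the low tier, with 7.45, 5.63 and 5.9 CPM in the high tier. Both tiers with Nrg1 lay above the low tier, at log2 fold changes of 1.13 for the middle and 0.77 for the high tier. Sass6, needed for the cartwheel of new centrioles, was at 7.6, 6.11 and 7.78 CPM in the middle tier and 2.89, 3.93 and 4.12 CPM in the low tier, a log2 fold change of 0.97. The high tier lay above the low tier here as well, at 5.77, 6.7 and 6.42 CPM. The other 6 genes higher in the middle tier by the naming rule were Slc41a1 at 0.71, Rpap1 at 0.51, Vps72 at 0.44, Snrk at 0.36, Immt at 0.34 and Kpna4 at 0.29.

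Lower in the middle tier were Cherp at -1.51, Galnt11 at -1.17, Arntl at -0.91, Hspb11 at -0.68, Rhebl1 at -0.63, Tdp1 and Tusc3 at -0.50 each and Atp2c1 at -0.43. Arntl (BMAL1, a core factor of the circadian clock) was at 8.16, 6.62 and 7.03 CPM in the middle tier and 14.8, 15.4 and 11.2 CPM in the low tier, and at 9.38, 7.34 and 9.75 CPM in the high tier. Both tiers with Nrg1 lay below the low tier. Cherp, an endoplasmic reticulum and splicing protein, was at 3.12, 2.85 and 0.898 CPM in the middle tier and 5.96, 5.55 and 8.19 CPM in the low tier, and its log2 fold change at passage 3 was 2.53. None of these 16 genes passed the threshold in any direction, and the lowest unadjusted p was 0.0014, for Rhebl1.

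With both tiers pooled against the low tier, 0 of 11579 genes passed in edgeR (0%) and 0 of 21545 in DESeq2, and in edgeR 252 had an unadjusted p under 0.05 (2.18%), 148 higher (1.28%) and 104 lower (0.898%). All 6 libraries with Nrg1 lay above all 3 low ones for 126 genes (1.09%) and below them for 67 genes (0.579%). Besides Serinc5, Sass6, Vps72 and Bach2, the rule named Nhsl1, Gata6, Socs2 and Hoxc10 as higher. Socs2, an inhibitor of growth hormone signalling, was at 19.2, 24.9 and 31.3 CPM in the high tier, 18.3, 20.1 and 24.6 CPM in the middle tier and 16.1, 14.9 and 13.1 CPM in the low tier. The 6 libraries stood above the 3, at a log2 fold change of 0.64.

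Gata6, a transcription factor gene of endoderm and heart, was at 8.42, 9.29 and 14.6 CPM in the high tier, 8.44, 11.5 and 9.79 CPM in the middle tier and 4.51, 7.33 and 4.37 CPM in the low tier. Its log2 fold change of both tiers together was 0.92, beside 1.16 for Nhsl1 and 0.55 for Hoxc10. On the other side stood Gt(ROSA)26Sor at -1.39, Arntl at -0.79, Il1rl1 at -0.73, Atp5sl at -0.69, Heca at -0.66, Tbc1d19 at -0.53, Adck5 at -0.49 and Sall2 at -0.38.

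A strict order of the 3 tiers, with no overlap between neighbours, was found at passage 1 for 14 genes that went up with Nrg1 (0.121%) and 2 that went down (0.0173%). The 2 were Gt(ROSA)26Sor and Slc25a14, a mitochondrial carrier, the latter named after its values were seen. Among those that went up were Mllt4 and Tpm2. Of the 1680 arrangements in the exact permutation test, a share of 0.0012 gives a strict order in either direction. The shares of genes found are together close to it, so strict order alone does not mark a gene. When the same order was asked of the passage 3 libraries too, 0 of 11359 genes met it in either direction, Gt(ROSA)26Sor failing through embryo 6 (8.59 CPM), which lay above the low tier.

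Passage 3 libraries of 8 of these embryos give the same cells later in culture, and not new animals. Nrg1 was at 147, 158 and 117 CPM in the high tier, 59.8, 74.2 and 75.1 CPM in the middle tier and 1.28 and 0.8 CPM in the low tier, so each embryo would fall in its passage 1 tier again. The ratio of the high to the middle mean was 2.02. Of 11787 genes tested, 0 passed in edgeR for high against low (0%), with 693 at an unadjusted p under 0.05 (5.88%), and 0 for middle against low (0%), with 483 (4.1%). For both tiers pooled against the low tier the counts were 0 (0%) and 577 (4.9%). DESeq2 called 13, 3 and 12 genes in these comparisons, but gave an adjusted p to 3485, 21307 and 7747 genes, so these counts are not on a common base with each other or with those of edgeR.

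Of the 193 genes higher at passage 1 with an unadjusted p under 0.05, 189 were tested at passage 3, where 137 had the same sign and 21 of these an unadjusted p under 0.05, while 1 had such a p with the opposite sign. Of the 158 lower genes, 157 were tested, 111 had the same sign, 11 of these with an unadjusted p under 0.05, and 2 had such a p with the opposite sign. Over all 11787 genes tested at passage 3, 5955 were higher and 5832 lower in the high tier. Of these, 344 and 349 had an unadjusted p under 0.05 in edgeR. Both passages come from the same embryos, so the counts are not a replication. A test of whether the difference of high and low changed with passage gave 0 of 12356 genes past the threshold in edgeR, with 321 at an unadjusted p under 0.05, and 0 of 23198 genes in DESeq2. With the embryo as a block the count was 0 as well, with 285 at an unadjusted p under 0.05.

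Postn (periostin, a matrix protein made by fibroblasts) was called by DESeq2 in both passage 3 comparisons. It was at 350, 374 and 324 CPM in the high tier, 364, 371 and 334 CPM in the middle tier and 527 and 629 CPM in the low tier. Both tiers with Nrg1 lay below the low tier, by log2 fold changes of -0.78 and -0.73, with adjusted p of 0.12 and 0.45 in edgeR and 1.7e-07 and 1.5e-05 in DESeq2. At passage 1 Postn ran from 100 to 503 CPM within the high tier and from 158 to 476 CPM within the low tier, and its log2 fold change was -0.01.

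Col6a3, a chain of type VI collagen, was at 502, 511 and 400 CPM in the high tier, 446, 422 and 437 CPM in the middle tier and 655 and 670 CPM in the low tier at passage 3. Again the 6 libraries lay below the other 2, at log2 fold changes of -0.55 and -0.64 (adjusted p 0.61 and 0.75 in edgeR, 0.0022 and 0.00052 in DESeq2). Postn and Col6a3 were named after their values were seen. The low tier rests there on embryos 3 and 5 alone, which carry different genotype labels.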

How the data were processed

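Total RNA of fibroblasts (RNeasy columns) was made into QuantSeq 3′ libraries and read on a HiSeq4000, per the labels' protocols. The authors deposited a table of expected counts for 46517 genes, made from these reads with tools and a genome build that no label or header used here names. Of the values, 6.5% were not whole. CPM was computed from the values as deposited. For the tests they were rounded, which moved no total by more than 0.00106%. The tests had been laid out for 9 passage 3 libraries and for 18 in a joint fit. A single count column, headed with a passage that no label of embryo 8 gives, could not be matched to a sample and was not used, so these fits held 8 and 17.

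The 9 passage 1 libraries entered 1 fit with 3 tiers in edgeR 4.0.16 (R 4.3.3, limma 3.58.1): TMM scaling, filterByExpr with a minimum count of 10, the two-sided quasi-likelihood F test, and Benjamini-Hochberg adjustment at 0.05 across every gene tested, Nrg1 left out. Standard errors and 95% intervals were derived from the F statistic. The fit had 6 residual degrees of freedom and a common biological coefficient of variation of 25%. Scripts were tested on simulated data. No 2 libraries of a tier agreed within sampling noise (smallest chi-square per degree of freedom 3.44).

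The same embryo links libraries of both passages, and their deviations from the tier means correlated at 0.04 to 0.33 over 8 embryos. Genes named are Cd74 and the ErbB receptors, the 8 of smallest p in each direction with at least 5 CPM and no overlap in each comparison (unnamed gene models, sex-linked and mitochondrial genes passed over), and up to 4 members per list. A gene that the rule also picks is not reported here. The tiers, the 31 gene lists and the tests were chosen with earlier results of these data known. Lists are described by counts and medians, with no test.

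As alternatives, DESeq2 1.42.0, relative log expression scaling, other filters, fits on fewer or more libraries, covariates for Y-linked and macrophage genes, groups as labelled and fits without single embryos were tried.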

Additional observations from a re-analysis of the deposited data

How the results depend on the processing

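Depth and 3 embryos a tier set the limits: the 95% interval of a log2 fold change reached a median of 0.49 to either side, less for abundant genes, and genes below the count filter, Erbb3 and Erbb4 among them, were not tested. The fit on only the tiers compared equals the main one for both tiers together and was not run there. DESeq2 was not run for medians of lists.

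The count of genes past the threshold for high against low was 0, and 1 with Y-linked expression as a covariate (Crabp1), 4 without embryos 2, 3 and 10 (mt-Atp6, Ddx3y, Xist, Tsix) and 0 to 1 on leaving out each embryo (mt-Atp6 without embryo 3). For middle against low it was 2 in DESeq2, 1 with 17 libraries in the fit, 1 without embryos 2, 3 and 10 (mt-Atp6) and 0 on leaving out each embryo. For both tiers together it was 1 with 17 libraries, 1 with the Y-linked covariate (Crabp1), 3 without embryos 2, 3 and 10, and 0 to 1 on leaving out each embryo (mt-Atp6 without embryo 3, Lsm7 without embryo 4, adjusted p = 0.036 in edgeR). At passage 3 DESeq2 called 13 genes for high against low and 3 for middle against low, and leaving out each embryo gave 0 and 0 to 1 (Col6a3 without embryo 10). With the embryo as a replicate block, the count for the difference between passages stayed at 0. Without embryos 2, 3 and 10 the high tier holds embryos 1 and 7, both male, and the low tier embryos 5 and 8, both female. Tier and sex cannot be told apart when these are compared, and Ddx3y, Xist and Tsix are sex-linked genes. The cause of the shifts was not tested.

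The 109 gene results had 1960 values under alternatives, of which 1919 kept their direction and their side of the threshold, 7 came to pass it and 34 reversed. With groups as labelled, Bach2 was -0.03, Thumpd3 0.24, Ereg -0.37, Cdkn1b -0.07, Mki67 -0.08, Kif20a -0.19, Igfbp5 2.03, Timp1 -0.10, Wt1 -0.10, Upk1b -0.61, Gstm1 -0.07, Msmo1 0.11, Pmp22 -0.11 and Spry2 -0.02. Without embryos 2, 3 and 10, where tier and sex cannot be told apart, Erbb2 was -0.17, Hbegf -0.01 and Dusp6 -0.06. Without embryos 1 and 3, Kif20a was -0.04 and Igfbp5 0.27. With the Y-linked covariate, C1qa was 1.92 and Oas1a 0.62. On leaving out each embryo in turn, the ranges of results that reversed were Erbb2 -0.13 to 0.26, Hbegf -0.26 to 0.56, Ier3 -0.01 to 0.33, Pmaip1 -0.61 to 2.29, Gdf15 -0.04 to 1.13, Igfbp5 -2.29 to 0.20, Oas1a -1.24 to 0.19, Myog -2.66 to 7.48, Mylpf -1.75 to 5.42, Dusp6 -0.06 to 0.35, and at passage 3 Lsm7 -0.32 to 0.86, Il1rl1 -0.38 to 0.58; embryo 10 reversed all of them but Igfbp5, which embryo 3 did, and Oas1a also reversed without embryo 8. The cause of these reversals was not tested.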
